A study of Mus musculus with 20 samples.

Results

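The 10 genes described here encode apolipoproteins and apolipoprotein-like secreted proteins of the liver: Apoa1, Apoa2, Apoa4, Apoa5, Apob, Apoc1, Apoc3, Apoe, Apoh and Apom. They were chosen by their mouse symbols as abundant mRNAs of secreted proteins, and are 10 of the 53028 genes in the count table. The rule of choice did not use their measured values, but earlier results of these data were known. All 10 were among the 13795 genes that passed the filter on low counts across the 20 libraries. Total RNA and RNA from polysome fractions were sequenced from the livers of 10 male C57BL/6J mice given locked nucleic acids (LNAs, antisense oligonucleotides with a stabilized backbone), so each mouse gave 1 library of each RNA. The 5 control mice, numbered 1, 2, 3, 8 and 9, received an LNA against GFP, a protein that mice lack. The 5 treated mice, numbered 4, 6, 10, 11 and 12, received an LNA against the small nucleolar RNA SNORA73, which the sample labels write as Snora37. Every mouse was fed chow, was 8 weeks old by the design text (10 weeks by the methods for liver ribosomes), received 3 intraperitoneal injections of 3 mg/kg on alternate days, and was killed 2 days after the last of them. Cycloheximide, which holds ribosomes on the mRNA, was given before the livers were taken for polysomes, in both groups.

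Apolipoproteins are the protein coats of lipoproteins, the particles in which plasma carries triglyceride and cholesterol. Hepatocytes build very-low-density lipoprotein around a single molecule of apolipoprotein B. The smaller apolipoproteins are secreted, exchange between particles, and act as cofactors or inhibitors of lipases and as ligands of receptors. All are made on ribosomes bound to the endoplasmic reticulum, and polysome RNA holds the mRNAs that carry several ribosomes. The comparison of polysome with total RNA, called loading here, therefore asks how far each mRNA is enriched among ribosome-bearing mRNAs relative to the other genes.

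The total RNA libraries held 20005571 to 42023572 estimated counts and the polysome RNA libraries 14853056 to 33824824, and the lowest count of any of the 10 genes in any library was 609. The hepatocyte markers (8 of 8 detected, Alb and Cps1 among them) summed to between 34500 and 62300 CPM (counts scaled to a common library size) in the 4 groups, against 131 to 285 for 8 Kupffer cell markers. Of 5 intestinal markers 3 were at 0 in every library, and Fabp2 was the main one detected. Counts of Snora73a reached at most 2 and those of Snora73b at most 4, so the knockdown cannot be read from these poly(A)-selected libraries. The 10 genes together held 3.80% ± 0.323 (SD, n = 5) of all counts in total RNA of GFP LNA mice and 3.57% ± 0.548 in that of SNORA73 LNA mice. In polysome RNA their share was 6.13% ± 0.257 and 5.72% ± 1.34. CPM values below are scaled by the trimmed mean of M values over the 20 libraries. They are not divided by transcript length, so they compare samples and not genes.

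The genes lie on 6 chromosomes of GRCm38.p6. Apoa1 (chr9:46228630-46230469), Apoc3 (chr9:46233050-46235636), Apoa4 (chr9:46240844-46243458) and Apoa5 (chr9:46268608-46271921) are neighbours on chromosome 9, and Apoc1 (chr7:19689480-19692659) and Apoe (chr7:19696244-19701310) on chromosome 7. Apoa2 (chr1:171221564-171226379), Apob (chr12:7977629-8016839), Apoh (chr11:108395297-108414396) and Apom (chr17:35128997-35131801) stand alone. RefSeq windows before the start site were used for 8 of the 10 genes, and 4 are shown because these genes gave the results below on loading (Apoa2, Apob, Apom) or the lowest p-value by LNA in total RNA (Apoa5). Each line gives the bases that precede the annotated gene, 5′ to 3′ on the strand of the gene. Capitals mark 3 motifs searched on both strands in the 250 bases before the start: the TATA box TATAAA and the nuclear receptor half-sites AGGTCA and GGGTCA.
Apoa2, plus strand, chr1:171221314-171221563: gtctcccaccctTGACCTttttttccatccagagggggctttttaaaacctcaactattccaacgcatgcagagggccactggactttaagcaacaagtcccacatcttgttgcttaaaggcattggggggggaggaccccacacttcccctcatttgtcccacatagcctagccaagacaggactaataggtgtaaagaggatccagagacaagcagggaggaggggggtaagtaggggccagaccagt
Apoa5, plus strand, chr9:46268358-46268607: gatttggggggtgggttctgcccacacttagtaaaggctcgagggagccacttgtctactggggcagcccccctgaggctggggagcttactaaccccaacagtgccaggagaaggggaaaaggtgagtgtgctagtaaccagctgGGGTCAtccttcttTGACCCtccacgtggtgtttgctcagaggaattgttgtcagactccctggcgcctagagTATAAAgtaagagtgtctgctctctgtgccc
Apob, plus strand, chr12:7977427-7977628: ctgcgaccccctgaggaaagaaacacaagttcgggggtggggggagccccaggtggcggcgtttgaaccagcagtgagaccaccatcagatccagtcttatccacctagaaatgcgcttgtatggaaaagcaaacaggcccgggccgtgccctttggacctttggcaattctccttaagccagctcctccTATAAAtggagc
Apom, minus strand, chr17:35131802-35132051: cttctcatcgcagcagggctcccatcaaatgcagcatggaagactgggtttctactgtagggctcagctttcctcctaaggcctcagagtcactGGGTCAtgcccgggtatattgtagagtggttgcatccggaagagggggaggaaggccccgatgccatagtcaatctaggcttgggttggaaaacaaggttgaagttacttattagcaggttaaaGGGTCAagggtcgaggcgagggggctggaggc

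In these letters Apoa5 held GGGTCA on both strands and a TATAAA that began 31 bases before its start site, and Apom held GGGTCA at 156 and at 32 bases before its start. Apob held TATAAA and the Apoa2 window held AGGTCA on the opposite strand. Over 12 start windows of the 8 genes, TATAAA was found in 5, GGGTCA in 4 and AGGTCA in 2. Both windows of Apoa5 overlap and hold the same TATAAA and GGGTCA letters, which are counted in each. Among all 32851 RefSeq windows of this length the shares were 12.4%, 11.6% and 14%. A match of letters is a description and not a binding site.

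The first comparison was polysome against total RNA within each LNA group. The mRNAs of 3 small exchangeable apolipoproteins, Apoc1, Apoc3 and Apoa2, were 2.61-fold to 3.12-fold higher in polysome than in total RNA, in control and treated mice alike. Apom was 1.47-fold and 1.49-fold higher. Apob, the mRNA of the very large structural protein of the particle, fell to 0.512-fold and 0.479-fold. Of the 10 genes, 4 were thus higher and 1 was lower in each group by the quasi-likelihood test of edgeR at a false discovery rate (FDR, the Benjamini-Hochberg adjusted p over all genes tested) below 0.05. Over all 13795 genes, 42.8% were called in GFP LNA mice (21.8% higher, 21.0% lower) and 38.0% in SNORA73 LNA mice (19.7% higher, 18.2% lower). The median log2 fold change was 0.12 over the 10 genes and 0.029 over all genes in GFP LNA mice, and 0.080 against 0.020 in SNORA73 LNA mice. Total RNA and polysome RNA were purified by different kits, and the kit and the RNA fraction cannot be told apart. The 8 stellate cell markers summed to 213 to 327 CPM in total RNA and 136 to 205 CPM in polysome RNA, and the 8 endothelial markers to 134 to 189 CPM and 106 to 148 CPM, and their part in the loading values was not tested.

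Apoc1 encodes apolipoprotein C-I, which inhibits the uptake of triglyceride-rich particles. In GFP LNA mice 1, 2, 3, 8 and 9 it measured 6361, 5877, 5133, 4958 and 4584 CPM in total RNA, and 20572, 16819, 14510, 15274 and 16776 CPM in polysome RNA. In SNORA73 LNA mice 4, 6, 10, 11 and 12 it measured 6106, 5343, 4437, 7614 and 5085 CPM in total RNA, and 16148, 15003, 12020, 26297 and 19666 CPM in polysome RNA. The lowest polysome library, mouse 10, was above the highest total library, mouse 11. The fitted log2 change from total to polysome RNA was 1.64 (SE 0.183, FDR 6.47e-07) with the GFP LNA and 1.64 (SE 0.183, FDR 9.58e-07) with the SNORA73 LNA. Only 0.768% of all genes had a larger log2 change in either group.

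Apoc3 encodes apolipoprotein C-III, an inhibitor of lipoprotein lipase. Its CPM in total RNA were 1362, 1282, 1225, 915 and 1308 in the GFP LNA mice in the same order, and 3488, 3509, 3304, 3122 and 4861 in polysome RNA. The SNORA73 LNA mice gave 1538, 1433, 843, 1607 and 1257 CPM in total RNA and 3747, 3030, 2747, 5293 and 4320 CPM in polysome RNA. All 10 polysome libraries were above all 10 total libraries. The log2 change was 1.59 (SE 0.192, FDR 1.71e-06) and 1.52 (SE 0.192, FDR 3.91e-06).

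Apoa2 encodes apolipoprotein A-II, the second most abundant protein of high-density lipoprotein. Total RNA of the GFP LNA mice held 6678, 6510, 5472, 5156 and 4795 CPM, and their polysome RNA 16486, 15293, 13487, 14493 and 15830 CPM. The SNORA73 LNA mice held 6374, 6630, 4071, 8040 and 5989 CPM in total RNA and 13609, 15583, 10643, 22299 and 19076 CPM in polysome RNA. Polysome and total values did not overlap here either, and mouse 10 was the lowest of the 10 mice in both RNAs. The log2 change was 1.40 (SE 0.182, FDR 3.94e-06) and 1.38 (SE 0.182, FDR 6.12e-06).

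Apob encodes apolipoprotein B, the non-exchangeable scaffold of very-low-density lipoprotein. Its total RNA values were 2703, 2683, 2358, 2324 and 2377 CPM in the GFP LNA mice and 2302, 2319, 2897, 2552 and 2539 CPM in the SNORA73 LNA mice. The polysome values were 1427, 1341, 1247, 1237 and 1121 CPM, and 1231, 1370, 1405, 1025 and 1009 CPM. Every polysome library was below every total library. The log2 change was −0.97 (SE 0.113, FDR 1.10e-06) with the GFP LNA and −1.06 (SE 0.113, FDR 5.64e-07) with the SNORA73 LNA, and all 10 mice showed the decrease, with ratios of 0.397 to 0.591.

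Apom encodes apolipoprotein M, the lipocalin that carries sphingosine-1-phosphate on high-density lipoprotein. It measured 243, 240, 312, 222 and 323 CPM in total RNA of the GFP LNA mice and 307, 310, 351, 458 and 545 CPM in their polysome RNA. The SNORA73 LNA mice held 293, 310, 212, 282 and 275 CPM in total RNA and 297, 273, 405, 573 and 500 CPM in polysome RNA. The ratio exceeded 1 in 9 of 10 mice and was 0.881 in mouse 6. The log2 change was 0.56 (SE 0.200, FDR 0.0293) and 0.58 (SE 0.200, FDR 0.0271). Both calls were lost without mice 9 and 10, at log2 changes of 0.46 and 0.49 (FDR 0.0832 and 0.0706). The GFP LNA call was also lost without mouse 2 (FDR 0.0519), mouse 8 (0.147) or mouse 9 (0.0753). The SNORA73 LNA call was lost without mouse 10 (FDR 0.0940), mouse 11 (0.128) or mouse 12 (0.118). Over the fits that left out a single mouse, the log2 change of Apom was 0.44 to 0.64 and 0.44 to 0.74.

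The other 5 genes did not pass the test in either group. Apoe, the ligand of the low-density lipoprotein receptor, had log2 changes of −0.15 (FDR 0.466) and −0.098 (FDR 0.672). Apoa1, the main protein of high-density lipoprotein, had −0.058 (FDR 0.791) and −0.12 (FDR 0.603). Their 95% intervals ran from −0.49 to 0.18 and from −0.43 to 0.24 for Apoe, and from −0.39 to 0.27 and from −0.45 to 0.21 for Apoa1, which exclude a change as large as those of Apoc1, Apoc3 or Apoa2. Apoa5, an activator of lipolysis, had 0.073 and 0.066. Apoh, the phospholipid-binding beta-2-glycoprotein I, had 0.059 and 0.094. Apoa4, a secreted apolipoprotein made in liver and intestine, had 0.17 and −0.026 with the widest intervals of the 10 genes, from −0.42 to 0.77 and from −0.62 to 0.57.

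**Figure D1:**
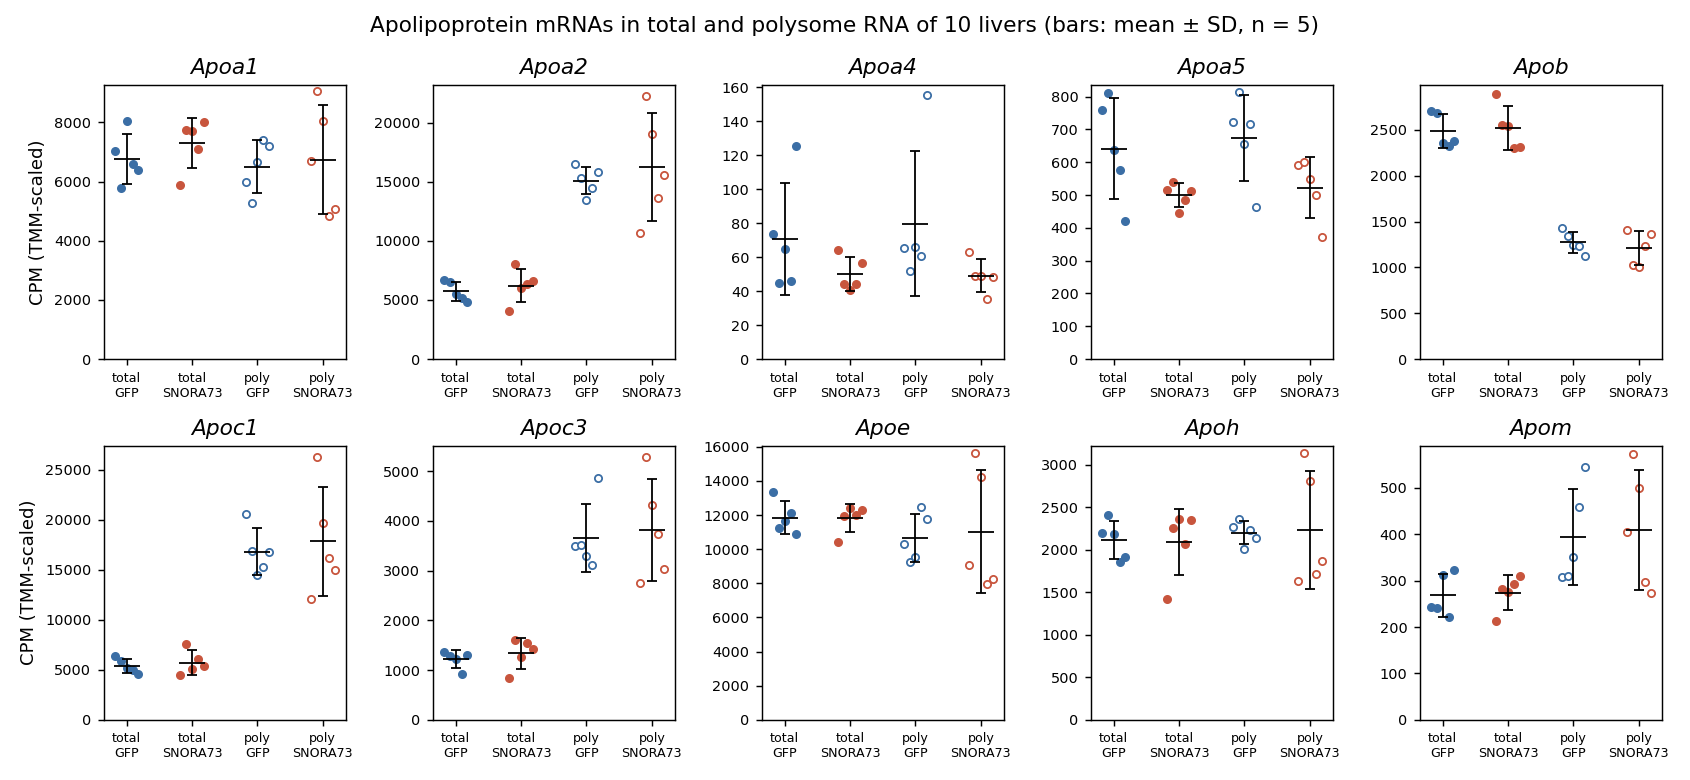
CPM of each gene by library (vertical axis, scaled by the trimmed mean of M values, starting at 0) in 4 groups of 5 mice. Points are mice, bars the mean ± SD, blue GFP LNA, red SNORA73 LNA, filled total RNA, open polysome RNA. Polysome and total values of Apoc1, Apoc3, Apoa2 and Apob do not overlap, while the blue and red points of each RNA overlap in every panel.

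**Figure D2:**
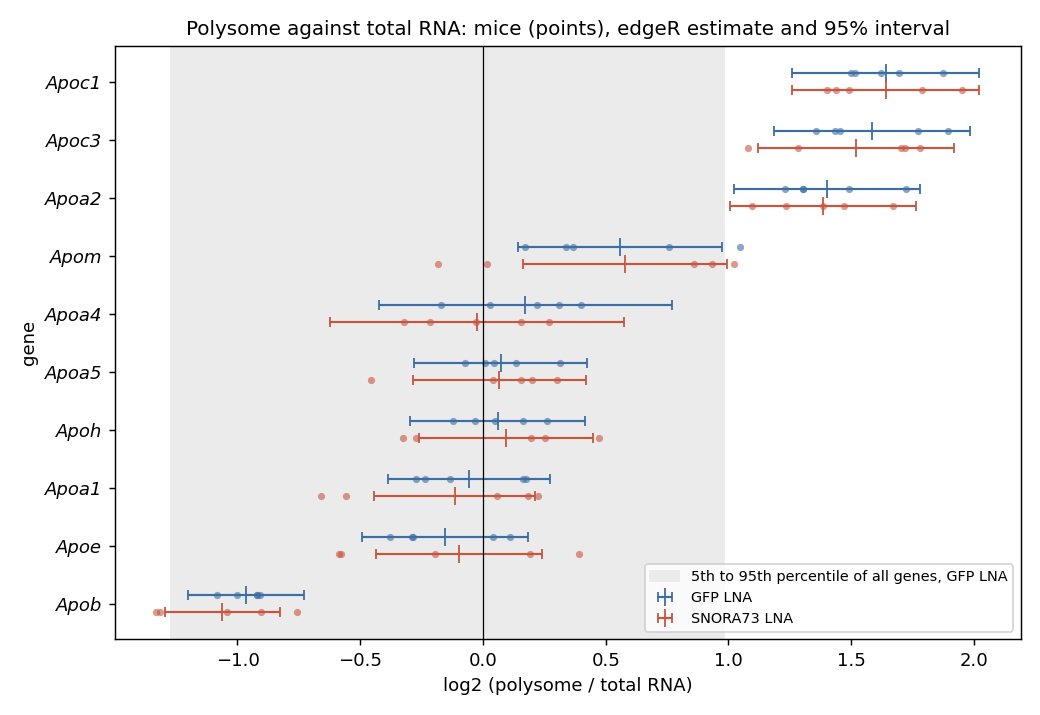
Log2 ratio of polysome to total RNA (horizontal axis) for the 10 genes (vertical axis). Points are mice, vertical ticks with error bars are the edgeR estimates with 95% intervals, and the grey band spans the 5th to 95th percentile of all genes in GFP LNA mice, from −1.27 to 0.98. Apoc1, Apoc3 and Apoa2 lie to the right of the band.

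Genes that sit side by side on the chromosome were compared in loading within the same liver. Apoc3 exceeded its neighbour Apoa1 in log2 loading by 1.5 to 1.84 (median 1.65), in 10 of 10 mice. It exceeded Apoa4 by 1.23 to 1.73 in 10 of 10 mice, and Apoc1 exceeded Apoe by 1.40 to 2.07 in 10 of 10. Apoa4 and Apoa5 differed by −0.363 to 0.243, with Apoa4 the higher in 4 of 10 mice. Of 9 genes tested from a list of further apolipoproteins, serum amyloid A and Pon1, 3 were higher with the GFP LNA and 2 with the SNORA73 LNA, and 0 were lower, beside 21.8% and 19.7% of all genes called higher and 21.0% and 18.2% called lower. Both groups shared the C apolipoproteins of the chromosome 7 cluster that were not among the 10 genes: Apoc4 was higher by log2 1.53 and 1.54 and Apoc2, the activator of lipoprotein lipase, by 1.42 and 1.33. Clu, the gene of apolipoprotein J, was called with the GFP LNA (0.48, with 0.31 in SNORA73 LNA mice), and Apof, Apon, Pon1, Saa1, Saa2 and Saa4 were called in neither group. The genomic span of the gene, the length available here, had a Spearman correlation with log2 loading of −0.334 and −0.279 over the 12912 genes (93.6%) with a span, a correlation across genes that are not independent replicates. Spans were 3180 bases for Apoc1, 2587 for Apoc3, 4816 for Apoa2, 39211 for Apob and 1840 for Apoa1. Transcript and protein lengths were not used, and the part of length in the loading values was not tested.

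The loading of most of the genes separated the mice by number. For 7 of the 10 genes (Apoa1, Apoa2, Apoa5, Apoc3, Apoe, Apoh and Apom) the log2 loading of mice 1 to 6 did not overlap that of mice 8 to 12, and all 7 were higher in mice 8 to 12. Among all genes, 5.41% did not overlap. Between the LNA groups, 0 of the 10 genes did not overlap in loading, against 1.72% of all genes. Both number ranges held mice of both LNAs, 3 GFP and 2 SNORA73 LNA mice in the first and 2 and 3 in the second. The labels do not say what the number ranges stand for, and this split was noticed in the data and is given without a test. Mice 4 and 6, the SNORA73 LNA mice of the first range, had the lowest log2 loading of Apoa1, Apoa4, Apoc3, Apoe, Apoh and Apom, and the highest of Apob. Over all genes, the total and polysome libraries of these 2 mice were also the least alike in their deviations from the group means (r of 0.117 and 0.0875, against 0.208 to 0.474 in the other 8 mice), and they were the 2 of 10 mice whose total RNA library matched the polysome library of another mouse better than its own (mouse 8, r 0.191, and mouse 12, r 0.192). The labels give each pair as 1 mouse. Without mice 4 and 6 the same 5 genes were called in each group. The log2 change of Apom in SNORA73 LNA mice was then 0.94 (SE 0.227) in place of 0.58. Mice 4 and 6 were left out after their low loading was seen, so this rise follows from the choice and is not a test. Library totals of polysome RNA ranged from 16701249 to 33824824 in mice 1 to 6 and from 14853056 to 24905852 in mice 8 to 12, and the part of depth in the split was not tested.

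Apom showed the widest separation of the 7. Its log2 loading was 0.34, 0.37, 0.17, 0.018 and −0.18 in mice 1, 2, 3, 4 and 6, and 1.05, 0.76, 0.93, 1.02 and 0.86 in mice 8, 9, 10, 11 and 12. Apoa1 had −0.24, −0.14, −0.27, −0.56 and −0.66 in the first 5 mice and 0.16, 0.17, 0.18, 0.22 and 0.057 in the other 5, so it was below 0 in every mouse of the first range and above 0 in every mouse of the second. For Apoa1 and Apom the CPM in polysome RNA also did not overlap between the ranges (2.02% of all genes), whereas in total RNA 0 of the 10 genes separated them (1.44% of all genes).

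Estimates within each range are given as a description, since the ranges were chosen from the loading of these genes, and the SNORA73 LNA mice of the first range were mice 4 and 6 alone. In mice 1 to 6, Apoe had a log2 change from total to polysome RNA of −0.36 (SE 0.115) with the GFP LNA and −0.61 (SE 0.141) with the SNORA73 LNA, and in mice 8 to 12 of 0.037 and 0.14. Apoa1 had −0.26 (SE 0.147) with the GFP LNA and −0.64 (SE 0.181) with the SNORA73 LNA in mice 1 to 6, and 0.13 and 0.13 in mice 8 to 12. Apom had 0.24 and −0.11 in mice 1 to 6 and 0.84 and 0.92 in mice 8 to 12. Apoc1, Apoc3 and Apoa2 stayed above 0 and Apob below 0 in both ranges and both LNA groups.

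**Figure D3:**
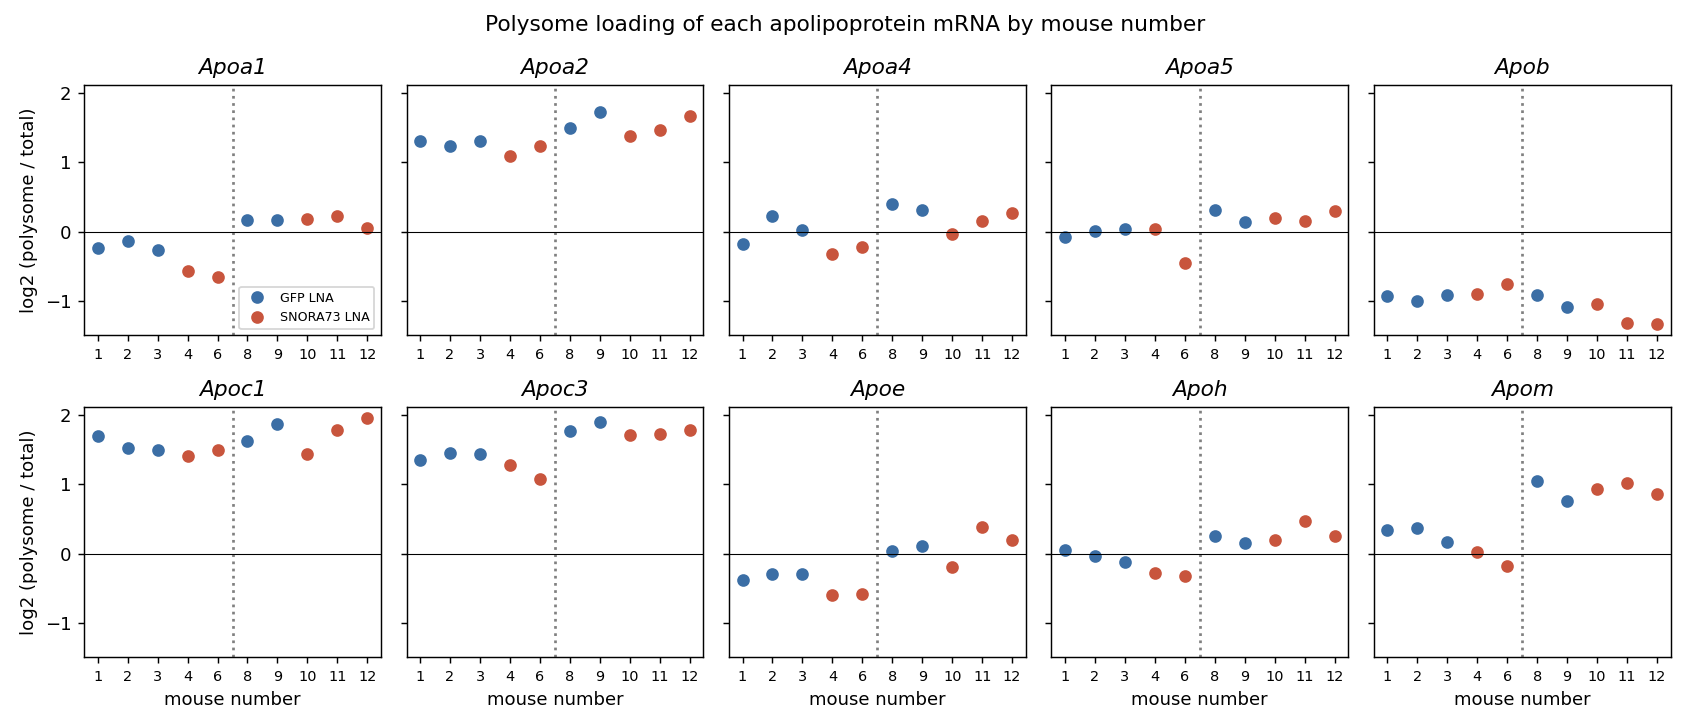
Log2 ratio of polysome to total RNA (vertical axis, shared) by mouse number (horizontal axis), 1 panel per gene. Each point is 1 mouse, blue GFP LNA and red SNORA73 LNA, and the dotted line divides mice 1 to 6 from mice 8 to 12. Apom, Apoa1 and Apoc3 step up at the line, and Apob is between −1.33 and −0.76 throughout.

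The second comparison asked whether the SNORA73 LNA changed the level of these mRNAs. In total RNA, 0 of the 10 genes were called by edgeR, and 1 of them, Apoa5, had an unadjusted p under 0.05. Neither limma-voom nor DESeq2 called any of the 10. Over all 13195 genes tested edgeR called 0.0303%, and 8.65% had an unadjusted p under 0.05 by edgeR. Of the same genes limma-voom called 5 and DESeq2 75. In polysome RNA 0 of the 10 genes were called again by edgeR, limma-voom and DESeq2, and 1, Apoa4, had an unadjusted p under 0.05 by edgeR. Over 13060 genes edgeR called 0.0153%, with 13.4% under 0.05, and DESeq2 called 281 genes. The median log2 fold change of the 10 genes was 0.025 in total and 0.050 in polysome RNA, beside 0.0070 and −0.011 over all genes. In none of the 10 genes did the values of the LNA groups separate, in either RNA, whereas 1.85% of all genes separated in total and 3.18% in polysome RNA. The libraries come from separate mice, and in bulk RNA fewer cells of a type and less RNA per cell cannot be told apart. The 8 endothelial markers summed to 134 to 165 CPM in total RNA of GFP LNA mice and to 167 to 189 CPM in that of SNORA73 LNA mice, and Stab2 among them was called higher (log2 1.06, FDR 0.0497 by edgeR). Their part in the values below was not tested.

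Apoe had a log2 fold change of −0.0052 in total RNA (95% interval −0.22 to 0.21), Apob 0.018 (−0.20 to 0.24), Apoa1 0.11 (−0.16 to 0.37) and Apoa2 0.12 (−0.24 to 0.48). In polysome RNA the intervals were −0.40 to 0.50 for Apoe, −0.38 to 0.21 for Apob, −0.36 to 0.46 for Apoa1 and −0.30 to 0.50 for Apoa2. In polysome RNA the SD was larger in SNORA73 LNA mice for 8 of the 10 genes and smaller for Apoa4 (9.76 against 42.6 CPM) and Apoa5 (93.2 against 131 CPM). In total RNA the SD was larger in SNORA73 LNA mice for 6 of the 10 genes and smaller for 4. These counts were not set against all genes. The SD of Apoe in polysome RNA was 3620 CPM against 1410 CPM in GFP LNA mice, around means of 11040 and 10650 CPM. In total RNA the SD of Apoe was 818 CPM against 966 CPM in GFP LNA mice. Polysome values of Apoe in SNORA73 LNA mice were 7982, 8243, 9092, 15658 and 14215 CPM, with the high values in mice 11 and 12.

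Apoa5 and Apoa4 had the lowest p-values. Apoa5 is a low-abundance regulator of plasma triglyceride made by the liver. Its total RNA held 760, 810, 637, 577 and 421 CPM in the GFP LNA mice and 485, 512, 516, 540 and 445 CPM in the SNORA73 LNA mice. Mouse 9 of the GFP LNA group was the lowest of all 10 mice, and the other 4 GFP LNA mice were above all 5 SNORA73 LNA mice. The log2 fold change was −0.36 (SE 0.155, p 0.0387, FDR 0.541 by edgeR) in total RNA and −0.37 (SE 0.178, FDR 0.386) in polysome RNA. Without mice 9 and 10 it was −0.49 (FDR 0.126) and −0.52 (FDR 0.195). Within mice 1 to 6 it was −0.56 (FDR 0.295) and −0.74 (FDR 0.177), and within mice 8 to 12 −0.0053 and 0.019 (FDR 0.999 and 0.997).

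Apoa4 total RNA held 73.3, 44.5, 64.9, 45.8 and 125 CPM in the GFP LNA mice and 44.0, 56.2, 64.2, 44.1 and 40.8 CPM in the SNORA73 LNA mice. Polysome RNA held 65.0, 51.8, 66.2, 60.3 and 155 CPM, and 35.3, 48.4, 62.9, 49.1 and 49.1 CPM. Mouse 9 was the highest in both RNAs, and the groups overlapped. The log2 fold change was −0.51 (SE 0.262, FDR 0.642) in total RNA and −0.70 (SE 0.270, p 0.0217, FDR 0.292 by edgeR) in polysome RNA, and without mouse 9 it was −0.21 (FDR 0.781) and −0.31 (FDR 0.426). Mouse 9 also had 0.0692-fold of the median of the other GFP LNA mice for Cyp4a14 and 0.233-fold for Pdk4, genes induced by fasting, and their part in its Apoa4 level was not tested.

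**Figure D4:**
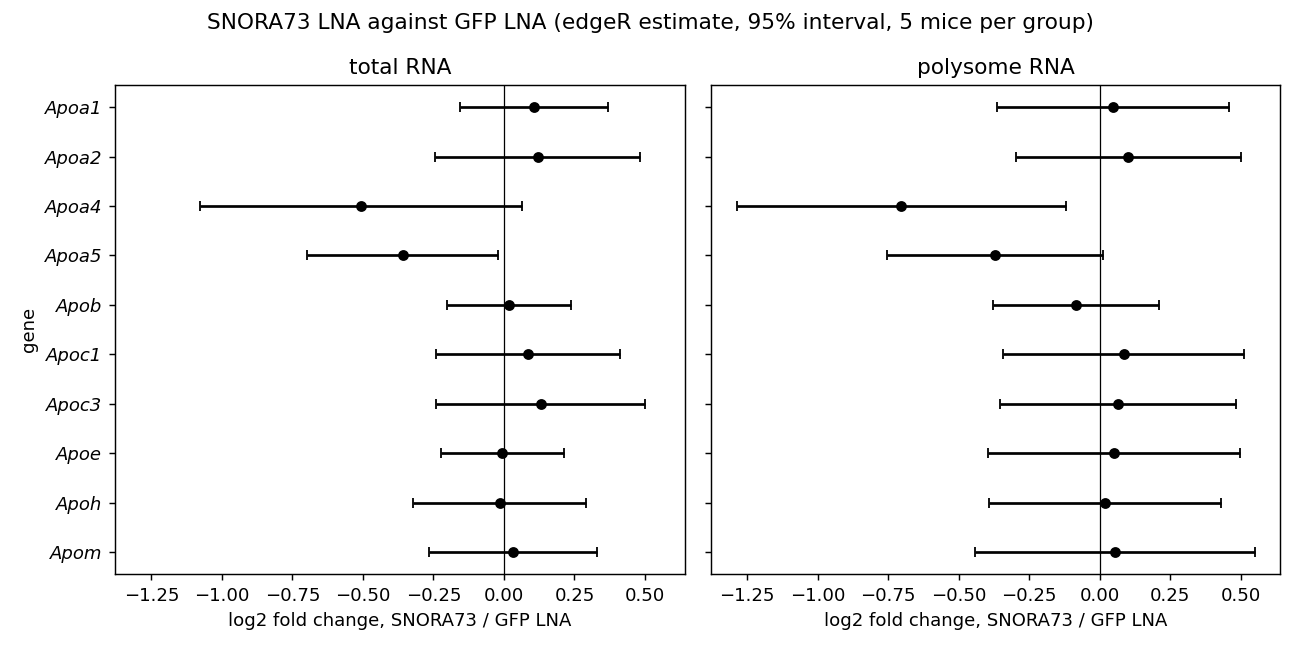
Log2 fold change of the SNORA73 LNA over the GFP LNA (horizontal axis) for the 10 genes in total RNA (left) and polysome RNA (right), 5 mice per group. Points are edgeR estimates and bars 95% intervals. Most intervals span 0, and those of Apoa5 in total RNA and Apoa4 in polysome RNA lie below it before adjustment for multiple testing.

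The third comparison was the change in loading with the SNORA73 LNA, tested as an RNA by LNA interaction in the fit of 20 libraries. None of the 10 genes was called by edgeR, limma-voom or DESeq2, and 0 had an unadjusted p under 0.05 by edgeR. Over 13795 genes edgeR called 0.00725%, with 2.91% under 0.05. The estimates ran from −0.20 for Apoa4 to 0.057 for Apoe, with a median of −0.012 over the 10 genes and −0.014 over all genes. For Apoc1 the difference was −0.00054 (SE 0.253, 95% interval −0.53 to 0.53), for Apob −0.096 (SE 0.158, −0.43 to 0.23), and for Apoc3 −0.067 (SE 0.265, −0.62 to 0.49).

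Mouse 10, of the SNORA73 LNA group, stood apart in other secreted proteins. Saa1 and Saa2 encode serum amyloid A, acute-phase apolipoproteins of high-density lipoprotein. Saa1 measured 7742 CPM in total RNA of mouse 10 and 21.6 to 298 CPM in the other 9 mice, and Saa2 measured 8427 CPM against 8.96 to 254 CPM. Fga and Hp, acute-phase genes, measured 7132 and 9042 CPM there, with at most 2703 and 3534 CPM in the others. In the same library Apoa2, Apoc1, Apoc3, Apoe, Apoh and Apom were each the lowest of the 10 total RNA libraries, and Apob was the highest at 2897 CPM. In total RNA Apoh had 1422 CPM in mouse 10 and 1861 to 2412 CPM in the others. How many of all genes were lowest or highest in this library was not counted. In polysome RNA mouse 10 was again the lowest for Apoa2, Apoc1, Apoc3 and Apoh. It was not the lowest there for Apoe or Apom, and not the highest for Apob. The part of the acute-phase genes in these levels was not tested.

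**Figure D5:**
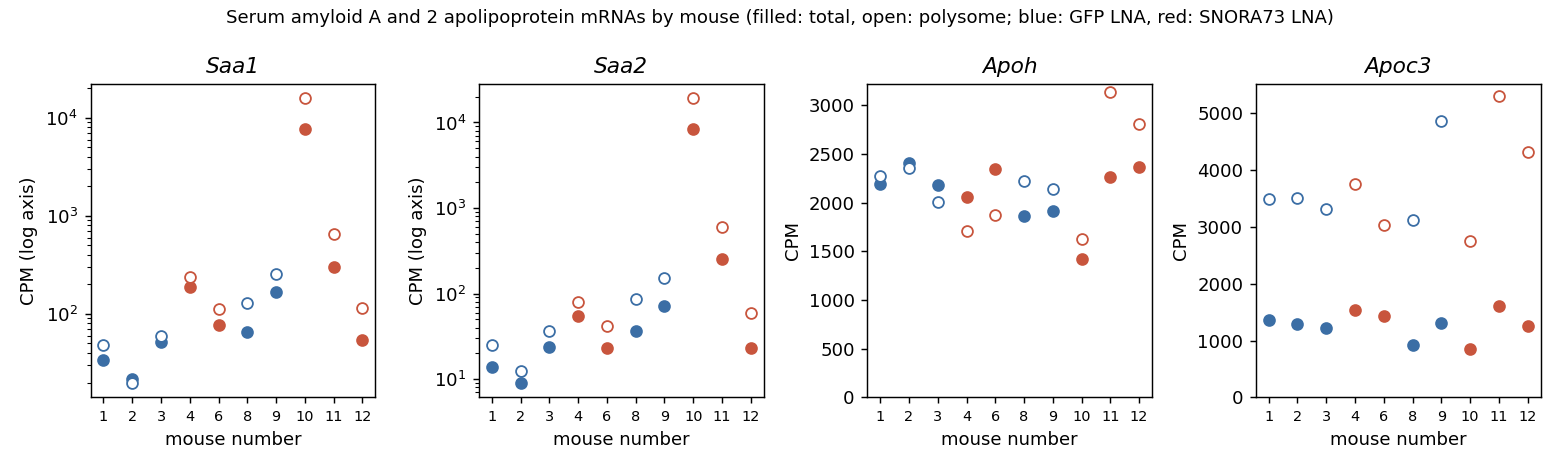
CPM by mouse number for Saa1 and Saa2 (log axis) and for Apoh and Apoc3 (linear axis from 0), filled total RNA, open polysome RNA, blue GFP LNA, red SNORA73 LNA. Mouse 10 has the highest Saa1 and Saa2 values in both RNAs, and the lowest Apoh and Apoc3 values in total RNA.

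The relation of the genes to each other across livers differed from pair to pair. Over the 10 total RNA libraries the median Pearson's r of the 45 pairs of genes was 0.291, and 16 pairs were below 0. The values ran from −0.66 between Apob and Apom to 0.914 between Apoa2 and Apoc1. For log2 loading the median r over the same pairs was 0.747, with 35 pairs above 0.5 and 9 below 0. These are descriptions over 10 mice whose values share the scaling, and the loading values share the split by mouse number given above. The genes outside the 10 whose log2 CPM was most like the mean of their scaled values were Pgls, Nme3, Ndufaf8, Mrpl37 and Afg3l1 in total RNA (r of 0.958 to 0.971) and Rtf2, Urod, Pgls, Amy1 and Ecm1 in polysome RNA (0.946 to 0.987), among 6221 and 6207 genes compared, of which 56 and 22 had an r above 0.9.

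Genes that build and handle the same particles were read from fixed lists. The counts from these lists stand beside 42.8% of all genes called higher or lower in polysome RNA of GFP LNA mice and 38.0% in SNORA73 LNA mice, and no list was set against the other genes by a test. Of 13 lipoprotein assembly genes, 1 was higher and 3 were lower in polysome than in total RNA of GFP LNA mice, and 1 was higher and 4 were lower in SNORA73 LNA mice. Among those lower were Sar1b, a GTPase of the vesicles that export the particle (log2 −1.0 and −0.94), Mttp, which loads lipid onto apolipoprotein B (−0.56 and −0.58), and A1cf, the partner of the Apob mRNA editing enzyme (−0.81 and −0.63). Dgat1, a triglyceride synthase, was higher (0.76 and 0.66). Of 10 remodelling genes, 1 and 2 were higher and 2 and 2 lower: the lipid exporter Abca1 fell by 1.56 and 1.15 on the log2 scale, Lpl fell by 1.13 and 0.92, and Lcat, which esterifies cholesterol on high-density lipoprotein, rose by 0.61 and 0.44. Of 8 receptor genes, 3 and 2 were higher and 0 and 1 lower, with Lsr (0.80 and 0.91) and Lrp1 (0.51 and 0.47) higher in both groups. Of 12 regulators, 4 and 3 were higher and 2 and 0 lower, the higher ones including Nr1h3, the liver X receptor alpha (0.74 and 0.70), and Rxra (0.48 and 0.50). With the SNORA73 LNA against the GFP LNA, 0 genes of these 4 lists were called by edgeR in total RNA (3 at an unadjusted p under 0.05) or in polysome RNA (4 at an unadjusted p under 0.05), beside 0.0303% and 0.0153% of all genes called and 8.65% and 13.4% at an unadjusted p under 0.05.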

How the data were processed

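Estimated counts per gene were deposited by the authors for 20 libraries, of total and polysome RNA from 10 mice. By the study's methods and the processing notes, poly(A)-selected, 100-base paired reads were trimmed with fastp, reads matching rRNA were removed, and kallisto estimated transcript counts that were summed to genes, with GRCm38 named as the build. Kallisto shares reads among similar transcripts, which makes counts of near-identical genes uncertain.

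Symbols were matched for 51903 of the 53028 genes. Counts were rounded to whole numbers and genes with more than 0.5 CPM in at least 4 libraries of a fit were kept. After TMM scaling, edgeR 4.0.16 (R 4.3.3) gave quasi-likelihood tests, with 10 libraries per LNA comparison and all 20 for loading and its interaction with the LNA. Alternatives were limma-voom (limma 3.58.1), DESeq2 1.42.0, DESeq2 size factors, library totals, a filter of 1 count, each mouse left out, mice 9 and 10 left out, 1 fit of 20 libraries, and the mouse as a replicate block. Fits without mice 4 and 6, within mice 1 to 6 and within mice 8 to 12 were chosen after seeing the data. The study excluded 1 sample of each LNA group after principal component analysis. The labels do not say which, so leaving out mice 9 and 10 may not match that exclusion. Ratios per mouse used 0.01 CPM as pseudocount. Promoter motifs were counted in Python.

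Total and polysome libraries with the same number come from the same mouse by the labels, which gives the pairing. Their deviations from group means correlated at 0.0875 to 0.474 over genes, and 8 of 10 total RNA libraries matched their own mouse best, those of mice 4 and 6 not. The test was tried on simulated data, where it recovered 67.0% of the changed genes for total RNA by LNA, 48.0% for polysome RNA by LNA and 63.9% for loading in GFP LNA mice. These shares belong to the genes altered in those data, which were 197, 196 and 194. Recovery at the sizes of change measured in these livers was not tested.

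The 10 genes, the gene lists and the design were chosen with earlier results of these data known. Named are the 10 genes, up to 4 called genes per list by lowest FDR, defining markers, and the 5 genes most like the 10 in each RNA with a mean of at least 10 CPM.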

Additional observations from a re-analysis of the deposited data

Results flagged for a closer look

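In 40 groups of 5 libraries (10 genes in 4 groups) 5 had a highest or lowest library whose gap to the nearest other exceeded Dixon's 95% critical value of 0.71 of the range, and chance flags about 1 in 20 groups. Mouse 9 of the GFP LNA group had the highest polysome value of Apoa4, 155 CPM with the nearest at 66.2 CPM, and of Apoc3, 4860 CPM with the nearest at 3510 CPM. Mouse 8 had the lowest total RNA value of Apoc3 among GFP LNA mice, 915 CPM with the nearest at 1220 CPM. Mouse 10 had the lowest total RNA values of Apoe and Apoh among SNORA73 LNA mice, 10400 CPM with the nearest at 12000 CPM and 1420 CPM with the nearest at 2060 CPM. No flag was tested further.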

How the results depend on the processing

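The counts of the 10 genes called kept within 1.5 times of the reported count in each of 98 combinations of a comparison with an alternative: 0 by LNA in total and polysome RNA and in the loading change, and 4 to 6 for loading. Of 980 values of single genes under an alternative, 837 kept their direction and their side of the threshold, 10 lost a call, all of them Apom, 3 passed the threshold in mice 1 to 6, a range chosen from the loading of these genes (Apoe with either LNA, Apoa1 with the SNORA73 LNA), and 130 changed sign. Apart from Apom loading with the SNORA73 LNA, no value that changed sign had been called, and the cause was not tested. Apoc1, Apoc3, Apoa2 and Apob kept their loading calls in all 20 alternatives in each group.

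Over all genes, the calls by LNA depended on the setting: 4 in total RNA became 75 with DESeq2, 13 with the filter of 1 count, 97 without mice 9 and 10 and 0 without mice 4 and 6, and 2 in polysome RNA became 281 with DESeq2, 72 with the filter of 1 count, 31 without mice 9 and 10, 8 without mice 4 and 6 and 317 in 1 fit of 20 libraries. Library totals moved the median log2 change of all genes by LNA to −0.138 in total and −0.165 in polysome RNA, so values near 0 turned negative with them. With the mouse as a replicate block, 5 genes were called in each loading comparison as before, with Apom at FDR 0.0139 and 0.0166, and the block changed no other call.

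The log2 values whose sign changed are given by setting. With library totals, the LNA effect in total RNA was −0.031 for Apoa1, −0.015 for Apoa2, −0.13 for Apob, −0.052 for Apoc1, −0.0053 for Apoc3 and −0.11 for Apom. There, the LNA effect in polysome RNA was −0.13 for Apoa1, −0.060 for Apoa2, −0.079 for Apoc1, −0.096 for Apoc3, −0.12 for Apoe, −0.15 for Apoh and −0.12 for Apom. There, the loading change was −0.00028 for Apoh and −0.014 for Apom. With the filter of 1 count, the LNA effect in total RNA was −0.0037 for Apob. Without mice 9 and 10, the LNA effect in total RNA was −0.052 for Apob, 0.0097 for Apoe and 0.063 for Apoh. There, the loading change was 0.070 for Apoa2, 0.10 for Apoc1 and 0.015 for Apoc3. Without mice 4 and 6, the LNA effect in total RNA was −0.069 for Apom. There, loading with the SNORA73 LNA was 0.15 for Apoa1, 0.11 for Apoa4 and 0.16 for Apoe, and the loading change was 0.21 for Apoa1, 0.12 for Apoa2, 0.14 for Apoa5, 0.12 for Apoc1 and 0.15 for Apoc3. In mice 1 to 6, the LNA effect in total RNA was −0.16 for Apob, −0.018 for Apoc1 and 0.0055 for Apoe. There, the LNA effect in polysome RNA was −0.27 for Apoa1, −0.041 for Apoa2, −0.14 for Apoc1, −0.011 for Apoc3, −0.25 for Apoe, −0.30 for Apoh and −0.18 for Apom. There, loading with the GFP LNA was −0.036 for Apoa4, −0.050 for Apoa5 and −0.073 for Apoh. There, loading with the SNORA73 LNA was −0.22 for Apoa5, −0.33 for Apoh and −0.11 for Apom. In mice 8 to 12, the LNA effect in total RNA was 0.00037 for Apoe, 0.083 for Apoh and −0.099 for Apom. There, the LNA effect in polysome RNA was 0.019 for Apoa5 and 0.0029 for Apob. There, loading with the GFP LNA was 0.13 for Apoa1 and 0.037 for Apoe. There, loading with the SNORA73 LNA was 0.13 for Apoa1, 0.088 for Apoa4 and 0.14 for Apoe. With limma-voom, the LNA effect in polysome RNA was −0.00021 for Apoe and −0.033 for Apoh. There, the loading change was −0.0059 for Apom. With DESeq2, the loading change was 0.0065 for Apoa5 and 0.014 for Apoc1. With DESeq2 size factors, the loading change was 0.0065 for Apoa5 and 0.014 for Apoc1. With the mouse as a replicate block, the loading change was −0.0017 for Apom. As single mice were left out, the LNA effect in total RNA ranged over −0.039 to 0.048 for Apob, −0.043 to 0.16 for Apoc1, −0.041 to 0.037 for Apoe, −0.065 to 0.094 for Apoh and −0.035 to 0.11 for Apom. As single mice were left out, the LNA effect in polysome RNA ranged over −0.066 to 0.15 for Apoa1, −0.025 to 0.23 for Apoa2, −0.083 to 0.20 for Apoc1, −0.066 to 0.19 for Apoc3, −0.093 to 0.15 for Apoe, −0.12 to 0.12 for Apoh and −0.084 to 0.20 for Apom. As single mice were left out, loading with the SNORA73 LNA ranged over −0.22 to 0.0066 for Apoa1, −0.10 to 0.030 for Apoa4, −0.0012 to 0.17 for Apoa5, −0.25 to 0.0053 for Apoe and −0.031 to 0.20 for Apoh. As single mice were left out, the loading change ranged over −0.16 to 0.065 for Apoa1, −0.082 to 0.057 for Apoa2, −0.051 to 0.10 for Apoa5, −0.064 to 0.058 for Apoc1, −0.14 to 0.034 for Apoc3, −0.098 to 0.16 for Apoe, −0.090 to 0.14 for Apoh and −0.12 to 0.18 for Apom.

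The planned relation of loading to protein length was not run. The lowest count of the 10 genes in any library was 609.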

Other observations

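Secreted proteins of the liver other than apolipoproteins were read from a list. Of 16 plasma protein genes, 3 were higher and 0 lower in polysome than in total RNA with the GFP LNA, and 5 were higher and 0 lower with the SNORA73 LNA, beside 21.8% and 19.7% of all genes called higher and 21.0% and 18.2% called lower. Ttr, the plasma carrier of thyroid hormone, rose by 0.88 and 0.86 on the log2 scale. Rbp4, the plasma carrier of retinol, rose by 0.45 and 0.41, and Vtn, vitronectin, by 0.53 and 0.54. Kng1, kininogen 1, was called with the SNORA73 LNA (0.49, with 0.38 in GFP LNA mice). Alb, the gene of albumin, had 0.094 and −0.045 and was not called. The median over the 16 genes was 0.21 and 0.15 (log2), beside 0.029 and 0.020 over all genes and 0.12 and 0.080 over the 10 apolipoprotein genes. The difference between the lists was not tested.

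Among 9 genes of the fasting response, Cpt1a, the mitochondrial carnitine palmitoyltransferase, was lower in polysome RNA with either LNA (log2 −0.51 and −0.47), and none was higher, beside 42.8% and 38.0% of all genes called in either direction. With the SNORA73 LNA, 0 of the 7 tested were called by edgeR in total RNA (0 at an unadjusted p under 0.05) and 0 of the 8 tested in polysome RNA (2 at an unadjusted p under 0.05), beside 8.65% and 13.4% of all genes at an unadjusted p under 0.05. In mouse 10 Saa1 was at 7742 CPM in total and 15950 CPM in polysome RNA, and Saa2 at 8427 and 19380 CPM, values of a single mouse with no test.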
